A study of Homo sapiens with 8 samples.

Results

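The data compare 2 forms of the human cell line Sum159, grown from a triple-negative breast tumour and mesenchymal in many features, that differ in their label for ITGB4, the integrin β4 subunit. All genes of the deposited table were taken, in the 5 libraries of cells grown in petri dishes, out of 8 libraries in the series. The ITGB4-high group had 2 libraries labelled only as ITGB4 high, and the ITGB4-low group had 3 libraries, all from cells labelled as clone 1. Neither group had been injected into mice or treated with bleomycin, and no other genetic change is named for either. The labels call the libraries of a group biological replicates and do not name separate cultures or dates, so that p-values measure the spread between these libraries, part of which may be technical. Because every ITGB4-low library came from 1 clone, what belongs to a low ITGB4 level and what belongs to that clone cannot be told apart here. Of 58336 genes in the table, 31118 had no count in the 5 libraries and 14879 had enough counts to be tested; the tested genes held 99.92% of all counts.

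Integrin β4 pairs with integrin α6 to form a receptor for laminins, the sheet-forming proteins of the basement membrane. In basal epithelial cells this receptor nucleates the hemidesmosome, a junction that ties the keratin cytoskeleton to the matrix below, and much of the same basal programme is driven by the transcription factor p63, encoded by TP63. Cells that leave the epithelial state tend to replace such contacts with fibronectin- and collagen-based ones. ITGB4 is used to sort cells along that axis in breast cancer lines.

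Expression is given in CPM, the counts of a gene per 1000000 counts of its library after TMM scaling. A gene was called higher or lower in ITGB4-low where the Benjamini-Hochberg adjusted p of edgeR's quasi-likelihood F test over all 14879 genes was under 0.05, and log2 fold changes are ITGB4-low minus ITGB4-high throughout. SE is the standard error printed beside a log2 change, taken as the absolute change divided by the square root of the F statistic. For genes with few counts in a group it understates counting error and gives no usable interval. HOXD13 had 2 counts in ITGB4-high and an SE of 0.298 at a log2 change of 8.14. The exact 95% interval of its ratio ran from 90.2 to 2702, wider than that SE implies. Libraries held 20413724 to 27218800 counts. The first principal component, with 87.2% of the variance, separated the groups, and the next, with 5.1%, set replicate 1 of ITGB4-low apart from the other ITGB4-low libraries. Replicates differed by more than sampling noise in every pair, with a chi-square per degree of freedom of 2.5 between replicates 2 and 3 of ITGB4-low and of 6.28 to 6.58 in the other pairs.

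The labels held at the gene that names the groups. ITGB4 (chromosome 17, 75721328 to 75757818 on hg38) stood at 419 and 373 CPM in ITGB4-high and 5.29, 7.42 and 9.06 CPM in ITGB4-low (log2 fold change -5.75, SE 0.11, adjusted p = 1.4e-16). The highest ITGB4-low library lay far below the lowest ITGB4-high library. ITGA6, the partner subunit, fell far less, from 194 to 145 CPM (log2 -0.42, SE 0.05), with 193 and 194 CPM against 151, 144 and 139.8 CPM. Per kilobase of exon, ITGB4 was at 58.5 and 1.07 CPM in ITGB4-high and ITGB4-low, and ITGA6 at 29.6 and 22.2 CPM, so that on this length-adjusted level the β4 message was the more abundant of the pair in ITGB4-high and the less abundant in ITGB4-low.

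Most tested genes differed, many of them by little. Of 14879 genes 8127 were called, 54.6% of those tested. Of these, 4150 (27.9%) were higher and 3977 (26.7%) lower in ITGB4-low. The larger changes were mostly rises: 1343 genes (9.03%) were called higher by 2-fold or more and 590 (3.97%) lower by 2-fold or more, and at 8-fold or more there were 256 and 146. The median absolute log2 change of called genes was 0.49, and 4735 of the calls (58.3%) were under 1.5-fold. The median log2 fold change of all tested genes was -0.0013, against which the medians of gene lists below are to be read. The balance of directions differed with the level in the higher group. Of 1633 genes under 1 CPM 321 were higher and 112 lower, and of 3496 at 1 to 10 CPM 1044 and 594. Of 7075 genes at 10 to 100 CPM 1996 were higher and 2189 lower, and of 2675 at 100 CPM or more 789 and 1082. List counts and medians below are not adjusted for level. The 2 libraries of one group and the 3 of the other did not overlap for 69.2% of tested genes. Precision set how much could be called: 26.5% of genes under 1 CPM in the higher group and 69.9% of genes at 100 CPM or more passed.

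**Figure D1:**
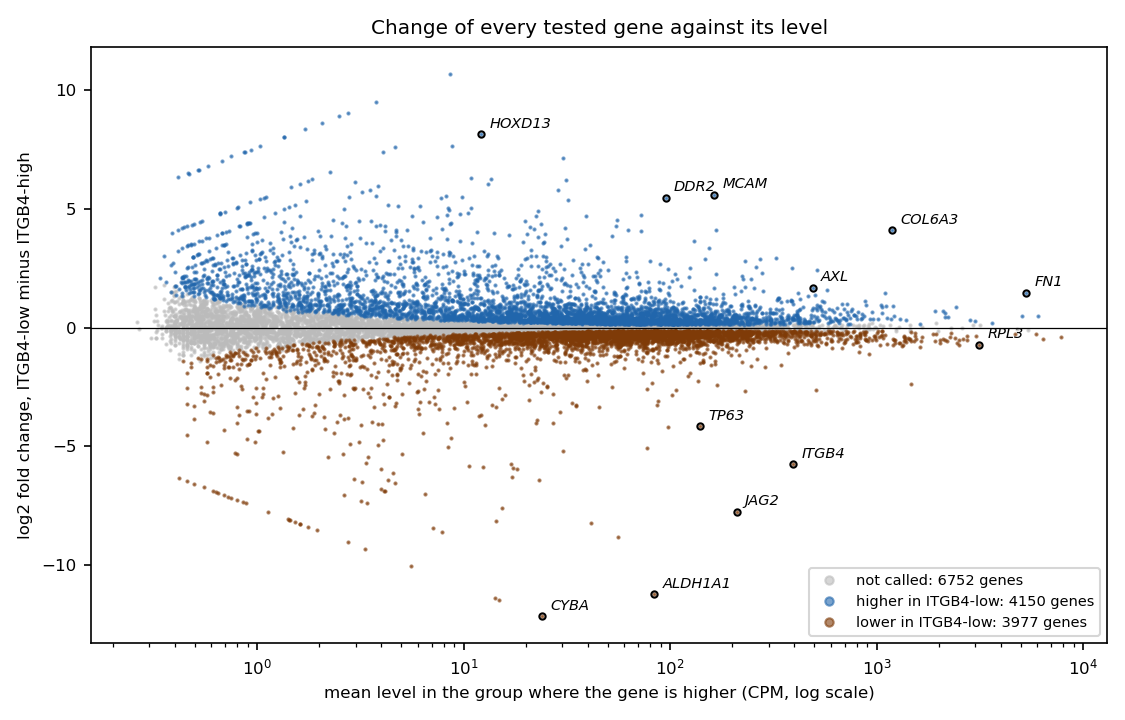
Log2 fold change (ITGB4-low minus ITGB4-high) of each of the 14879 tested genes against its mean CPM in the group where it is higher, on a log axis. Blue points are the 4150 genes called higher, brown the 3977 called lower and grey those not called; the large rises outnumber the large falls, and CYBA, ALDH1A1, JAG2 and ITGB4 lie lowest among the labelled genes.

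A few genes were present in 1 group and at or next to 0 counts in the other. Among genes that reached 5 CPM on one side, 4 had no count in any ITGB4-low library (CYBA, LAYN, B3GALNT1 and UGT8) and 1, CACNA1C, had none in either ITGB4-high library. CYBA, the membrane subunit shared by NADPH oxidases, had 25.01 and 22.98 CPM in ITGB4-high and 0, 0 and 0 CPM in ITGB4-low, at least 526-fold lower when the ITGB4-low group is set to a floor of 3 counts over the group. LAYN, the hyaluronan receptor layilin, was at least 326-fold lower, and B3GALNT1, the enzyme that makes globoside, at least 309.6-fold lower. ALDH1A1, the retinaldehyde-oxidising enzyme behind the ALDH stem-cell assay, had 78.5 and 89.2 CPM against 0, 0.0934 and 0 CPM, which is 2 counts in 1 ITGB4-low library and a ratio of 2757 (exact 95% interval 763 to 22771; counting error only). In the other direction CACNA1C, a voltage-gated calcium channel subunit, had 0 and 0 CPM against 8.45, 8.97 and 8.26 CPM, at least 152-fold higher. HOXD13, a homeobox factor of the distal limb, had 1 count in each ITGB4-high library and 0.0376 and 0.0386 CPM against 11.8, 12.5 and 12.3 CPM, a ratio of 327 (exact 95% interval 90.2 to 2702). In all 6 genes the groups stood apart in every library, which a choice of genes at or next to 0 counts in 1 group makes nearly certain.

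The start regions of 5 genes that were nearly silent in 1 group are shown to let their letters be compared, because a promoter rich in the dinucleotide CG is of the kind that DNA methylation can silence. Each run is RefSeq sequence of GRCh38.p14, from 250 bases before to 50 after the annotated start, on the gene's own strand from 5′ to 3′, with every CG in capitals. CYBA is at chr16:88651004-88651303, minus strand, ALDH1A1 at chr9:72953004-72953303, minus strand, JAG2 at chr14:105168727-105169026, minus strand, HOXD13 at chr2:176092471-176092770, plus strand and CACNA1C at chr12:2052737-2053036, plus strand.
CYBA: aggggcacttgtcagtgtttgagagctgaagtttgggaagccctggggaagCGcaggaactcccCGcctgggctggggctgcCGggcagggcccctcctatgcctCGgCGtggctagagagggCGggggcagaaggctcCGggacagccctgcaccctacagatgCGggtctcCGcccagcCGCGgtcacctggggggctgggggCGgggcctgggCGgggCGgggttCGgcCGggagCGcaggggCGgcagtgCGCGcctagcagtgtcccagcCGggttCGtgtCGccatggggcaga
ALDH1A1: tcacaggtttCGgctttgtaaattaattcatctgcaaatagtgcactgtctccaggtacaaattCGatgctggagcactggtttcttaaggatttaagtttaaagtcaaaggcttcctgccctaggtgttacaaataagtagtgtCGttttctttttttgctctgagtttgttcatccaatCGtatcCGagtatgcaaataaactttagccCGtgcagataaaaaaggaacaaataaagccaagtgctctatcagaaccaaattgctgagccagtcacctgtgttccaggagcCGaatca
JAG2: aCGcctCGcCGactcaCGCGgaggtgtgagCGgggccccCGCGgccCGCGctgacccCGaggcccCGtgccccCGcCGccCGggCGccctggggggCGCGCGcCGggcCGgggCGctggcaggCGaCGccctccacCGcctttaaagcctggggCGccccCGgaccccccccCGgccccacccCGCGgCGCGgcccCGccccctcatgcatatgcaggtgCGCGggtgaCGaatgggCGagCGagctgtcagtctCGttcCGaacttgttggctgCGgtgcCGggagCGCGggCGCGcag
HOXD13: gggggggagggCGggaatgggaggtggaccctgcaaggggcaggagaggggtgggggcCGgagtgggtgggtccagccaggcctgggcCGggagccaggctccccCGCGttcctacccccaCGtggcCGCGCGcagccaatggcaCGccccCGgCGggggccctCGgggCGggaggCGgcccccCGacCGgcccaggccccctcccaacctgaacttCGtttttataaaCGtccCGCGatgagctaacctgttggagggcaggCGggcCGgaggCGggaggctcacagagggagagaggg
CACNA1C: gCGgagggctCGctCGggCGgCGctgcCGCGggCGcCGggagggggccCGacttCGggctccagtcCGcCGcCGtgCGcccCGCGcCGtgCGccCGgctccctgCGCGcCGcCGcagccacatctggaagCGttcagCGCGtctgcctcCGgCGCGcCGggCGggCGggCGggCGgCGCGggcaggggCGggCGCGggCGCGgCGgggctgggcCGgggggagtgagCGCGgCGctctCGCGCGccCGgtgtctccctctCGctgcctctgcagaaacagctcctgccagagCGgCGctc
The runs hold 23 CG in CYBA, 7 in ALDH1A1, 46 in JAG2, 24 in HOXD13 and 54 in CACNA1C, against a median of 27 over the 7295 tested genes with a single RefSeq start region. Both the genes lost and the genes gained thus include CG-poor or average and CG-rich starts. No methylation was measured.

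Over all 7295 single-start genes, 3 short motifs were counted on both strands of the same 300 bases. TGANTCA, the core letters bound by AP-1 factors, was in 4.61% of all starts, in 8.66% of the 554 genes called higher by 2-fold or more and in 4.78% of the 251 called lower by 2-fold or more. GGAATG, the core letters of TEAD factors, was in 10.6%, 14.4% and 9.16% of the same sets. CACCTG, an E-box of the kind bound by SNAIL and ZEB factors, was in 17.4%, 20.4% and 22.7%. Genes with large changes had fewer CG than all starts, whose median was 27: the median was 22 in both 2-fold sets and 19 in both 8-fold sets. In median CG number these sets thus differed from all starts and not between the directions. A match describes letters and is not a binding site.

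Contacts with the basement membrane were lower in ITGB4-low and several other contacts were higher. In the hemidesmosome and basement membrane list 4 of 16 tested members were called higher and 10 lower, with a median log2 fold change of -0.36. Of the epithelial laminin chains described here, LAMB3 fell from 65.6 to 52.8 CPM (log2 -0.32, SE 0.07) and LAMA3 rose from 14.3 to 19.9 CPM (log2 0.48, SE 0.10). BCAM, a receptor for laminin α5, fell from 3.96 to 0.0289 CPM (log2 -6.82, imprecise at so few ITGB4-low counts). LAMA5, its ligand chain, fell from 148 to 90.8 CPM (log2 -0.70, SE 0.06). COL17A1, the transmembrane collagen of the hemidesmosome, fell from 11.5 to 3.85 CPM (log2 -1.57, SE 0.13). PLEC, the hemidesmosome's keratin linker, had group means of 706 and 768 CPM, ITGB4-high first as in each change given from one level to another, and was not called. Among laminins 3 of 10 tested members were called higher and 5 lower, with a median log2 fold change of -0.11.

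Integrin subunits changed in both directions. Of the integrin list 8 of 15 tested members were called higher and 6 lower, with a median log2 fold change of 0.18. ITGA11, a collagen receptor of fibroblasts, rose from 1.03 to 7.24 CPM (log2 2.81, SE 0.19), ITGB3, which pairs with αv to bind vitronectin, rose from 4.26 to 23.9 CPM (log2 2.48, SE 0.12), and ITGA5, the fibronectin receptor subunit, rose from 359 to 561 CPM (log2 0.64, SE 0.06). ITGA2 and ITGA3, which bind collagen and laminin in epithelia, fell from 345 to 116 CPM (log2 -1.57, SE 0.06) and from 791 to 518 CPM (log2 -0.61, SE 0.06). ITGA2 stood at 333 and 357 CPM in ITGB4-high and 125, 109.9 and 112 CPM in ITGB4-low.

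Keratins changed in both directions. KRT5, KRT14, KRT6A and KRT17, keratins of basal and activated epithelium, and KRT75, of the hair follicle, were called lower; KRT6A fell from 12.7 to 0.734 CPM (log2 -4.11, SE 0.17) and KRT75 from 16.97 to 0.318 CPM (log2 -5.74, SE 0.22). KRT8, of simple epithelium, rose from 80.8 to 161 CPM (log2 0.99, SE 0.06), while its partner KRT18 stood at 213 and 212 CPM and KRT7 at 1632.5 and 1665 CPM, neither of them called. KRT81 and KRT34, keratins of hair, rose from 0.628 to 5.199 CPM (log2 3.03, SE 0.25) and from 3.03 to 18.98 CPM (log2 2.65, SE 0.12); keratin genes lie in clusters of similar copies, so that reads may be shared among them. Over the list 6 of 14 tested members were called higher and 5 lower, with a median log2 fold change of 0.05.

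Cell-cell junction genes changed in part. No desmosome gene was called higher (0 of 6 higher and 4 lower, median -0.40): desmoplakin, DSP, had 40.01 and 38.5 CPM in ITGB4-high and 10.9, 10.97 and 11.8 CPM in ITGB4-low, and JUP, plakoglobin, fell from 47.1 to 25.6 CPM (log2 -0.88, SE 0.09). CDH2, N-cadherin, rose from 81.1 to 255 CPM (log2 1.65, SE 0.06) and CDH6 from 1.96 to 11.8 CPM (log2 2.59, SE 0.15). The clustered protocadherins, surface molecules known from neurons, gave 8 of 17 higher and 1 lower, median 1.06, and all the rises were of PCDHB genes at low level, such as PCDHB16 from 0.341 to 4.47 CPM; these genes are near-identical neighbours and their counts are uncertain. Tight junction genes gave 5 of 9 higher and 2 lower, median 0.41, with JAM3 up from 9.41 to 23.9 CPM (log2 1.34, SE 0.10) and CLDN1 down from 54.5 to 33.5 CPM (log2 -0.70, SE 0.08). Among connexins and pannexins (4 of 8 higher and 3 lower, median 0.12), GJA3 rose from 0.342 to 9.64 CPM (log2 4.79, SE 0.25) and GJB2 from 0.305 to 2.64 CPM (log2 3.08, SE 0.35).

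Collagen VI rose and several other collagens fell. Of 23 tested collagen genes 11 were higher and 9 lower. The 3 chains of collagen VI, a beaded microfibril around cells, rose together: COL6A3 (chromosome 2, 237324003 to 237414375) had 66.8 and 70.6 CPM in ITGB4-high and 1347, 1070.1 and 1146 CPM in ITGB4-low (log2 fold change 4.11, SE 0.09, adjusted p = 1.2e-15), COL6A2 rose from 43.3 to 327 CPM (log2 2.92, SE 0.08) and COL6A1 from 13.8 to 89.2 CPM (log2 2.69, SE 0.09). For COL6A3 the lowest ITGB4-low library was many times the highest ITGB4-high library. COL13A1 rose from 0.247 to 8.42 CPM (log2 5.05, SE 0.30). COL5A2, a fibril chain, went the other way, with 23.3 and 23.98 CPM in ITGB4-high and 3.25, 3.69 and 3.71 CPM in ITGB4-low. COL1A1 was at 27.96 and 30.6 CPM and was not called, and COL7A1, the anchoring fibril, fell from 114 to 77.3 CPM (log2 -0.56, SE 0.07).

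Enzymes that process collagen were more often higher than lower. In the collagen processing list 18 of 29 tested members were called higher and 5 lower, with a median log2 fold change of 0.42. ADAMTS2 and ADAMTS14, which clip the amino-terminal propeptide, rose from 0.421 to 31.4 CPM (log2 6.21, SE 0.17) and from 0.0564 to 3.86 CPM (log2 5.95). The ADAMTS14 change is imprecise at so few ITGB4-high counts. PCOLCE, which helps to remove the carboxy-terminal propeptide, had 0.715 and 0.811 CPM in ITGB4-high and 29.8, 32.4 and 33.4 CPM in ITGB4-low. PLOD2, a lysyl hydroxylase that sets the type of cross-link, rose from 3.14 to 24.97 CPM (log2 2.99, SE 0.12). CRTAP, of the prolyl 3-hydroxylase complex, fell from 489 to 373 CPM (log2 -0.39, SE 0.06). ADAMTS2 was near 0 in both ITGB4-high libraries, and its groups did not overlap.

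Among matrix glycoproteins 17 of 26 tested members were called higher and 5 lower, with a median log2 fold change of 0.60. FN1, fibronectin, had 1943 and 1908 CPM in ITGB4-high and 5505, 5157 and 5305 CPM in ITGB4-low (log2 1.47, SE 0.06), higher in each ITGB4-low library than in either ITGB4-high library. WISP1, a matricellular CCN protein, rose from 3.61 to 62.4 CPM (log2 4.11, SE 0.10). THBS2, an antiangiogenic thrombospondin, had 2 counts in 1 ITGB4-high library and none in the other, with 0.0752 and 0 CPM against 9.08, 7.89 and 9.299 CPM, a ratio of 235 (exact 95% interval 64.8 to 1945). SMOC1 fell from 125 to 32.9 CPM (log2 -1.93, SE 0.06). Proteoglycans were mixed (6 of 17 higher and 5 lower, median 0.01): VCAN, versican, rose from 2.699 to 29.7 CPM (log2 3.45, SE 0.13) and CSPG4 from 49.03 to 223 CPM (log2 2.18, SE 0.06), while SDC1, an epithelial syndecan, fell from 230.5 to 35.9 CPM (log2 -2.68, SE 0.07). Hyaluronan genes gave 5 of 11 higher and 3 lower, median -0.14, with CEMIP, which depolymerises hyaluronan, up from 0.115 to 2.57 CPM (log2 4.42, SE 0.43) and the receptor CD44 up from 444 to 666 CPM (log2 0.59, SE 0.05).

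Secreted and surface proteases were more often higher than lower. MMP2, gelatinase A, had 34.03 and 32.4 CPM in ITGB4-high and 229, 229.9 and 233 CPM in ITGB4-low (log2 2.79, SE 0.06), and MMP16, a membrane-type protease that activates it, rose from 1.39 to 10.6 CPM (log2 2.92, SE 0.18). Metalloproteinases and TIMPs gave 8 of 14 higher and 3 lower, median 0.30, and ADAM and ADAMTS proteases 14 of 25 higher and 5 lower, median 0.55. ADAM28 fell from 2.64 to 0.0156 CPM (log2 -7.04, imprecise at so few ITGB4-low counts) and ADAMTS9 from 144 to 52.5 CPM (log2 -1.45, SE 0.06). In the plasminogen system PLAU, urokinase, had 3.76 and 3.90 CPM in ITGB4-high and 0.146, 0.0934 and 0.1197 CPM in ITGB4-low, whereas its receptor PLAUR rose from 8.796 to 18.1 CPM (log2 1.04, SE 0.10) and the tissue activator PLAT from 202 to 306 CPM (log2 0.60, SE 0.05). The urokinase groups did not overlap. Of that list 7 of 14 members were higher and 1 lower.

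**Figure D2:**
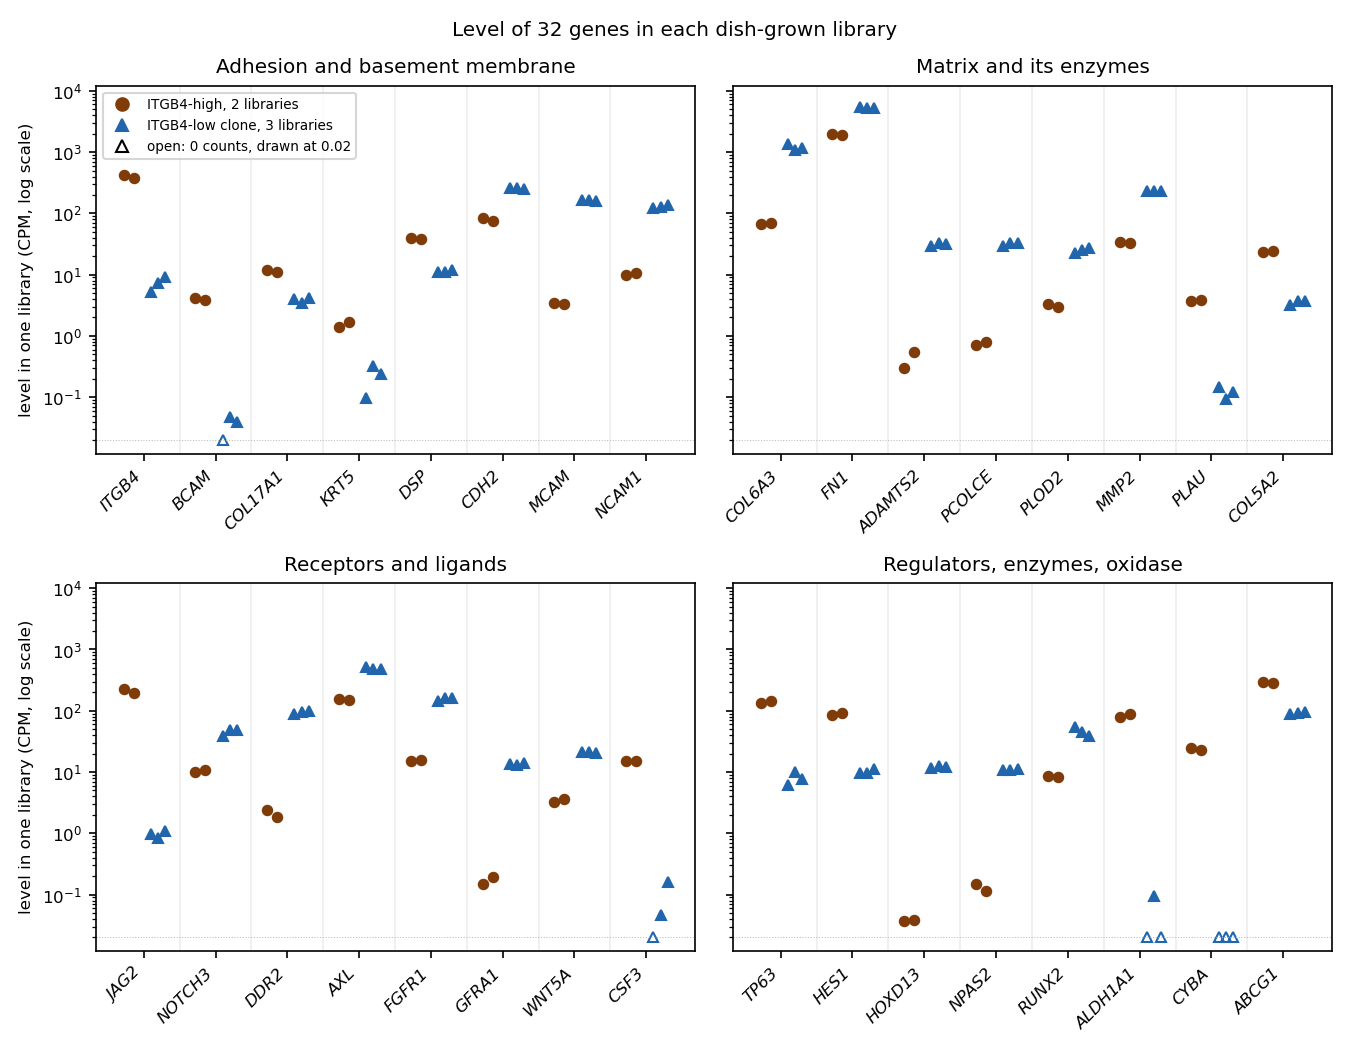
Level in CPM (log axis) of 32 named genes in each library, with brown circles for the 2 ITGB4-high libraries, blue triangles for the 3 ITGB4-low libraries and open symbols for 0 counts, drawn at 0.02. In each gene shown the libraries of the groups do not overlap; the spread within a group is widest for genes near 0, such as BCAM, CSF3 and KRT5.

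Growth factor receptors and their ligands changed in both directions, with large rises of DDR2 and FGFR1. DDR2, a collagen-activated receptor tyrosine kinase, had 2.44 and 1.81 CPM in ITGB4-high and 89.1, 96.1 and 100.4 CPM in ITGB4-low (log2 fold change 5.48, SE 0.11, adjusted p = 2.2e-16), while its epithelial relative DDR1 fell from 43.04 to 24.2 CPM (log2 -0.83, SE 0.08). FGFR1 had 15.2 and 15.6 CPM in ITGB4-high and 143, 161 and 160.0 CPM in ITGB4-low, with the ligands FGF2 from 164 to 346 CPM (log2 1.07, SE 0.05) and FGF1 from 0.495 to 6.83 CPM (log2 3.77, SE 0.23). Both receptors were separated between groups in all libraries. PDGFRB rose from 3.07 to 13.7 CPM (log2 2.16, SE 0.14) and its ligand gene PDGFB from 0.893 to 14.1 CPM (log2 3.97, SE 0.18), but PDGFRA fell from 9.32 to 3.49 CPM (log2 -1.42, SE 0.15). AXL, a kinase linked to mesenchymal states, rose from 153 to 492 CPM (log2 1.68, SE 0.06) and MET fell from 511 to 413 CPM (log2 -0.31, SE 0.05). GFRA1, the GDNF co-receptor, rose from 0.172 to 13.6 CPM (log2 6.27, SE 0.23), and NRTN, the ligand neurturin, fell from 7.51 to 1.22 CPM (log2 -2.61, SE 0.19). The co-receptors of VEGF and semaphorins, NRP1 and NRP2, rose from 186 to 468 CPM (log2 1.33, SE 0.06) and from 22.1 to 105 CPM (log2 2.26, SE 0.07). As lists, PDGF gave 3 of 5 higher and 1 lower, median 1.68, FGF 3 of 10 higher and 4 lower, median 0.21, VEGF and angiopoietins 5 of 11 higher and 3 lower, median 0.28 and the other receptor tyrosine kinases 8 of 18 higher and 8 lower, median 0.16. Leaving out replicate 2 of ITGB4-high moved the VEGF median to 0.81, and leaving out replicate 1 moved the FGF median to -0.07. Among IGF genes (4 of 11 higher and 2 lower, median -0.02) IGFBP2 fell from 35.2 to 3.66 CPM (log2 -3.25, SE 0.14) and IRS2, an insulin receptor substrate, rose from 66.6 to 139 CPM (log2 1.06, SE 0.07).

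The Notch pathway, in which a ligand on 1 cell activates a receptor on its neighbour, had the largest share of falls among the signalling lists. Of its list 7 of 24 tested members were called higher and 14 lower, with a median log2 fold change of -0.32. JAG2, a ligand, had 223 and 197 CPM in ITGB4-high and 0.971, 0.841 and 1.08 CPM in ITGB4-low (log2 fold change -7.75, SE 0.10, adjusted p = 1.9e-18). HES1, a direct target of the pathway, had 84.5 and 90.9 CPM against 9.66, 9.62 and 11.1 CPM. LFNG, which tunes the receptors with sugar, fell from 5.45 to 1.06 CPM (log2 -2.34, SE 0.20) and the ligand DLL1 from 4.59 to 1.68 CPM (log2 -1.45, SE 0.22). Both JAG2 and HES1 were apart between groups in all libraries. Among the members called higher were the receptors NOTCH3, which rose from 10.3 to 45.8 CPM (log2 2.16, SE 0.11), and NOTCH2, which rose from 275 to 376 CPM (log2 0.45, SE 0.07). HES1 lies on distal 3q, in a stretch where most genes were lower, as given below.

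In the WNT list (16 of 34 higher and 10 lower, median 0.33) WNT5A, a ligand of the non-canonical branch, rose from 3.47 to 21.2 CPM (log2 2.61, SE 0.11), DKK1, a secreted inhibitor, from 0.305 to 5.33 CPM (log2 4.10, SE 0.30), and the repressor TCF7L1 from 0.0762 to 2.63 CPM (log2 5.01, SE 0.43). The DKK receptors KREMEN1 and KREMEN2 fell from 32.04 to 7.96 CPM (log2 -2.01, SE 0.09) and from 4.32 to 1.205 CPM (log2 -1.84, SE 0.29), and RNF43, which removes WNT receptors, fell from 7.68 to 3.18 CPM (log2 -1.26, SE 0.15). In the BMP list (12 of 26 higher and 5 lower, median 0.17) the targets ID1 and ID3 fell from 246 to 79.7 CPM (log2 -1.63, SE 0.05) and from 244 to 151 CPM (log2 -0.70, SE 0.06), while the ligand BMP4 had no count in ITGB4-high and 0 and 0 CPM against 1.17, 1.59 and 1.28 CPM, at least 23.9-fold higher. Hedgehog genes (5 of 9 higher and 2 lower, median 0.79) split: GLI2 rose from 0.763 to 9.65 CPM (log2 3.65, SE 0.19) and the receptor PTCH1 from 7.67 to 19.6 CPM (log2 1.35, SE 0.10), and GLI1 fell from 27.4 to 10.7 CPM (log2 -1.35, SE 0.10). The list of YAP and TEAD genes gave 15 of 30 higher and 10 lower, median 0.12; TGFB2 rose from 1.72 to 31.1 CPM (log2 4.18, SE 0.15) and CTGF from 24.2 to 53.5 CPM (log2 1.15, SE 0.08), while TEAD3 fell from 48.8 to 37.05 CPM (log2 -0.40, SE 0.07) and STK3, a Hippo kinase, from 34.6 to 26.02 CPM (log2 -0.41, SE 0.07).

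Guidance molecules changed in both directions within families. Semaphorins, plexins, netrins and slits gave 18 of 34 higher and 7 lower, median 0.35. SEMA3E, a repellent ligand of plexin D1, had 14.1 and 14.7 CPM in ITGB4-high and 0, 0.0934 and 0.0399 CPM in ITGB4-low, while SEMA5A rose from 25.97 to 102 CPM (log2 1.98, SE 0.08) and SEMA3B from 3.18 to 14.8 CPM (log2 2.21, SE 0.14). The plexin PLXNB1 fell from 73.5 to 19.4 CPM (log2 -1.92, SE 0.07) and the netrin receptors NEO1 and UNC5C from 15.3 to 1.88 CPM (log2 -3.01, SE 0.14) and from 3.58 to 0.212 CPM (log2 -3.97, SE 0.35), while the ligand NTN1 rose from 0.1702 to 1.74 CPM (log2 3.31, SE 0.47). Among ephrins (4 of 14 higher and 6 lower, median -0.04) EPHA3 rose from 9.63 to 43.1 CPM (log2 2.16, SE 0.08) and EFNB2 from 24.9 to 78.6 CPM (log2 1.66, SE 0.08), and EFNA1 fell from 6.04 to 0.958 CPM (log2 -2.65, SE 0.20) and EFNB1 from 48.7 to 22.7 CPM (log2 -1.10, SE 0.08). Adhesion G protein-coupled receptors gave 7 of 15 higher and 4 lower, median 0.10, with ADGRF5 up from 68.1 to 388 CPM (log2 2.51, SE 0.06) and ADGRG6 down from 81.7 to 16.4 CPM (log2 -2.32, SE 0.07).

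Several inflammatory ligands fell. CSF3, the granulocyte colony-stimulating factor, had 15.4 and 15.2 CPM in ITGB4-high and 0, 0.0467 and 0.1596 CPM in ITGB4-low, LIF fell from 11.5 to 2.97 CPM (log2 -1.96, SE 0.14), and IL1B from 3.43 to 0.493 CPM (log2 -2.75, SE 0.28). IL6R, the interleukin 6 receptor, fell from 38.5 to 11.6 CPM (log2 -1.73, SE 0.08), while CSF2RA rose from 3.23 to 14.9 CPM (log2 2.20, SE 0.13) and OSMR from 155 to 249.8 CPM (log2 0.69, SE 0.05). CSF3 was near 0 in each ITGB4-low library. Interleukins and colony-stimulating factors as a whole gave 16 of 42 higher and 15 lower, median 0.18, and chemokines 5 of 9 higher and 1 lower, median 0.49, with CXCL2 down from 25.5 to 12.4 CPM (log2 -1.04, SE 0.08) and CXCL8 up from 28.4 to 39.9 CPM (log2 0.49, SE 0.11). The chemokine median was 0.25 without replicate 3 of ITGB4-low. In the TNF list (7 of 24 higher and 9 lower, median -0.13) EDA2R fell from 4.52 to 0.05898 CPM (log2 -6.12, imprecise at so few ITGB4-low counts). CD40 fell from 3.56 to 0.586 CPM (log2 -2.54, SE 0.33), and TNFRSF11A, the receptor RANK, rose from 11.5 to 39.01 CPM (log2 1.76, SE 0.08). The list of STAT and SOCS genes gave 10 of 21 higher and 6 lower, median 0.16.

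TP63 and TP73 were lower, while the list of TP63 and basal regulators as a whole was mixed, with 2 of 8 higher and 3 lower, median -0.10. TP63 (chromosome 3, 189631416 to 189897279) had 134 and 147 CPM in ITGB4-high and 6.12, 9.899 and 7.66 CPM in ITGB4-low (log2 fold change -4.15, SE 0.10, adjusted p = 2.8e-15) and TP73, its relative, fell from 20.6 to 2.51 CPM (log2 -3.04, SE 0.13). No ITGB4-low library reached the lower ITGB4-high library for TP63. FOXQ1 fell from 22.4 to 1.38 CPM (log2 -4.01, SE 0.14), and S100A2, a p63 target, had 95.1 and 101 CPM against 5.15, 5.32 and 5.59 CPM. RUNX2, a regulator of bone and invasion, rose from 8.44 to 45.7 CPM (log2 2.43, SE 0.13), TBX3 from 24.6 to 72.3 CPM (log2 1.55, SE 0.10), FOXD1 from 11.6 to 44.5 CPM (log2 1.94, SE 0.09), TWIST1, a driver of mesenchymal transition, from 2.64 to 6.68 CPM (log2 1.33, SE 0.17), and TCF4 from 13.5 to 29.7 CPM (log2 1.14, SE 0.09). MYC fell from 1454 to 1028 CPM (log2 -0.50, SE 0.06) and MLXIPL, a glucose-sensing factor, from 2.77 to 0.195 CPM (log2 -3.80, SE 0.36). The families as lists stood at 6 of 24 higher and 11 lower, median -0.18 for FOX, 7 of 20 higher and 8 lower, median 0.06 for KLF and SP, 6 of 27 higher and 12 lower, median -0.11 for nuclear receptors, 4 of 19 higher and 9 lower, median -0.27 for AP-1, ATF and EGR, and 6 of 22 higher and 12 lower, median -0.31 for MYC and ID-type factors.

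HOX genes, which record position along the body axis, moved mostly up, with 11 of 21 higher and 1 lower, median 0.32. Beside HOXD13, HOXB6 had 1 count in ITGB4-high and 0.0376 and 0 CPM against 1.41, 2.101 and 1.32 CPM, HOXB9 rose from 5.57 to 19.6 CPM (log2 1.82, SE 0.13) and HOXB13 from 0.246 to 1.85 CPM (log2 2.86, SE 0.41), and HOXA3 fell from 13.5 to 7.86 CPM (log2 -0.77, SE 0.12). Clock genes changed in both directions (7 of 20 higher and 10 lower, median -0.24). PER3 fell from 8.42 to 2.16 CPM (log2 -1.96, SE 0.17), PER2 from 28.6 to 12.2 CPM (log2 -1.22, SE 0.09) and the output factors DBP and TEF from 4.73 to 2.15 CPM (log2 -1.11, SE 0.20) and from 31.02 to 15.2 CPM (log2 -1.02, SE 0.11), while NFIL3, which opposes DBP and TEF, rose from 18.8 to 53.3 CPM (log2 1.51, SE 0.07). NPAS2, the alternative partner of ARNTL, had 0.1504 and 0.116 CPM in ITGB4-high and 10.7, 10.8 and 11.1 CPM in ITGB4-low, and ARNTL rose from 57.4 to 77.2 CPM (log2 0.43, SE 0.06). Dishes were collected at times not given in the sources used here, and the part of collection time in these genes was not tested.

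Oxidation and lipid genes were lower on balance. The list of NRF2 and glutathione genes gave 11 of 46 higher and 22 lower, median -0.10: AKR1C2 and AKR1C3, near-identical reductases whose reads may be shared, fell from 52.5 to 9.11 CPM (log2 -2.51, SE 0.14) and from 29.2 to 10.6 CPM (log2 -1.45, SE 0.13), and GSTP1 fell from 519 to 298 CPM (log2 -0.80, SE 0.06). TXNRD1 rose from 742 to 962 CPM (log2 0.37, SE 0.06). Of the NADPH oxidase list CYBA and RAC2 were lower and none of 5 tested members was higher. The aldehyde dehydrogenase list, with ALDH1A1 among its lower members, was mixed (7 of 14 higher and 3 lower, median 0.16), with ALDH7A1 up from 2.74 to 9.35 CPM (log2 1.77, SE 0.16). In the retinoid list (5 of 15 higher and 7 lower, median -0.12) RXRA fell from 198 to 88.6 CPM (log2 -1.16, SE 0.06) and DHRS3, which returns retinaldehyde to retinol, from 34.8 to 14.2 CPM (log2 -1.29, SE 0.10). Lipid transport and storage gave 8 of 32 higher and 16 lower, median -0.21: ABCG1, a cholesterol exporter, had 294 and 281 CPM in ITGB4-high and 88.1, 90.4 and 94.3 CPM in ITGB4-low, FASN fell from 765 to 469.7 CPM (log2 -0.70, SE 0.07) and DGAT2 from 23.4 to 9.203 CPM (log2 -1.34, SE 0.15). Uptake receptors rose, LRP1 from 30.2 to 89.2 CPM (log2 1.56, SE 0.06), SORL1 from 8.11 to 37.7 CPM (log2 2.21, SE 0.10) and VLDLR from 0.4202 to 3.94 CPM (log2 3.21, SE 0.29). Both ABCG1 groups were tight and apart.

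Some sugar-modifying enzymes, transporters and channels also changed, where 27.9% of all tested genes were higher and 26.7% lower. The O-glycosylation list, which also holds enzymes of other glycans such as B3GALNT1, gave 20 of 41 higher and 11 lower, median 0.19. GALNT15 rose from 11.6 to 80.1 CPM (log2 2.79, SE 0.08) and GCNT1 from 8.51 to 30.7 CPM (log2 1.85, SE 0.10). ST6GAL1, a member that caps N-glycans, fell from 165 to 56.4 CPM (log2 -1.55, SE 0.05). ABC transporters gave 9 of 29 higher and 10 lower, median -0.03, with ABCA13, ABCA3 and ABCC9 up, the last from 4.62 to 29.3 CPM (log2 2.67, SE 0.10). Potassium channels had the highest median of any list with at least 8 tested genes (8 of 14 higher and 1 lower, median 1.60), led by KCNH2 from 5.92 to 44.98 CPM (log2 2.92, SE 0.10) and KCNS3 from 1.53 to 13.1 CPM (log2 3.10, SE 0.17). HEPH, a ferroxidase, rose from 1.11 to 20.9 CPM (log2 4.23, SE 0.19). The iron list gave 6 of 21 higher and 6 lower, median -0.01, near the shares over all tested genes. The lysosome list gave 20 of 43 higher and 5 lower, median 0.15, with the protease genes CTSH and CTSC down from 7.23 to 0.766 CPM (log2 -3.24, SE 0.23) and from 217 to 96.9 CPM (log2 -1.16, SE 0.05) and the regulator MITF up from 11.1 to 23.3 CPM (log2 1.07, SE 0.09).

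The contractile cytoskeleton rose as a list: 22 of 27 tested members were called higher and 3 lower, with a median log2 fold change of 0.61. MYL9, a myosin light chain, had 8.42 and 8.88 CPM in ITGB4-high and 53.1, 68.5 and 60.9 CPM in ITGB4-low (log2 2.81, SE 0.11), TAGLN rose from 7.26 to 24.04 CPM (log2 1.73, SE 0.14), MYLK, the kinase that activates myosin, from 2.69 to 11.9 CPM (log2 2.14, SE 0.15) and TPM4 from 699 to 1067 CPM (log2 0.61, SE 0.05). All MYL9 values of ITGB4-low were above both of ITGB4-high. CNN2 fell from 202 to 141 CPM (log2 -0.51, SE 0.05), and VIM, vimentin, stood at 4799 and 4542 CPM and was not called. At the surface, MCAM, an adhesion molecule of melanoma and endothelium, had 3.46 and 3.28 CPM against 168, 164 and 159 CPM and NCAM1 9.82 and 10.8 CPM against 125, 129 and 136 CPM, while ICAM1 fell from 136 to 28.9 CPM (log2 -2.24, SE 0.06) and CD55 from 373 to 178 CPM (log2 -1.07, SE 0.06). ANXA3 rose from 2.697 to 72.3 CPM (log2 4.74, SE 0.14) and S100A4 from 3.62 to 25.05 CPM (log2 2.79, SE 0.14).

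Cell death and cycle regulators included calls in both directions. Over all tested genes 27.9% were higher and 26.7% lower, and the cell death list was near these shares. The BCL2 and caspase list gave 9 of 33 higher and 9 lower, median 0.03: the proapoptotic HRK rose from 0.707 to 11.6 CPM (log2 4.03, SE 0.19) and BOK from 27.03 to 76.4 CPM, while BCL2L11, the gene of BIM, fell from 16.4 to 6.41 CPM (log2 -1.36, SE 0.11) and CASP1 from 21.2 to 5.46 CPM (log2 -1.94, SE 0.13). Among D cyclins and CDK inhibitors (7 of 26 higher and 10 lower, median -0.08), CDKN1A, the inhibitor p21, fell from 134 to 65.97 CPM (log2 -1.02, SE 0.05), E2F1 from 42.6 to 19.8 CPM (log2 -1.11, SE 0.08) and E2F2 from 36.2 to 13.3 CPM (log2 -1.44, SE 0.10), and RB1 rose from 57.7 to 96.6 CPM (log2 0.74, SE 0.06).

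Cytosolic ribosomal protein genes were lower almost as a block. Of 83 tested 77 were called lower and 4 higher, with a median log2 fold change of -0.52. RPL3 had 3245 and 3027 CPM in ITGB4-high and 1715, 1983 and 2006 CPM in ITGB4-low (log2 -0.72, SE 0.07). The mitochondrial ribosome gave 17 of 78 tested genes higher, 12 lower and a median of -0.0034, and the proteasome 18 of 46 higher and 8 lower; the differences between these lists were not tested. Processed pseudogenes of ribosomal proteins, which resemble the genes in sequence, were lower too: 43 of 99 tested were lower and 4 higher, median -0.46, against 61 of 360 lower for processed pseudogenes of other genes, median -0.12. Reads of gene and copy may be shared. In bulk RNA, fewer cells of a type and less RNA per cell cannot be told apart. By place, the 77 ribosomal protein genes in windows with a median between -0.3 and 0.3 gave 72 lower and 3 higher, median -0.52, as in the whole list. In windows below -0.3 all 3 were lower. Of 2 genes in windows above 0.3, RPL7 was lower (log2 -0.51) and RPL26 higher; RPS6 lies in a window with too few genes. Of genes named after their values were seen, RPL17 on chromosome 18 (log2 -1.01) and RPL35A on chromosome 3 (log2 -0.79) lie in windows of lower genes, and RPL26 (log2 0.32), 1 of the 4 called higher, lies in the 17p stretch of higher genes. RPL24, with the largest fall (log2 -1.10), lies in a window on chromosome 3 where the other genes had a median of -0.15. RPL26 lost its call in 2 of the alternative fits.

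**Figure D3:**
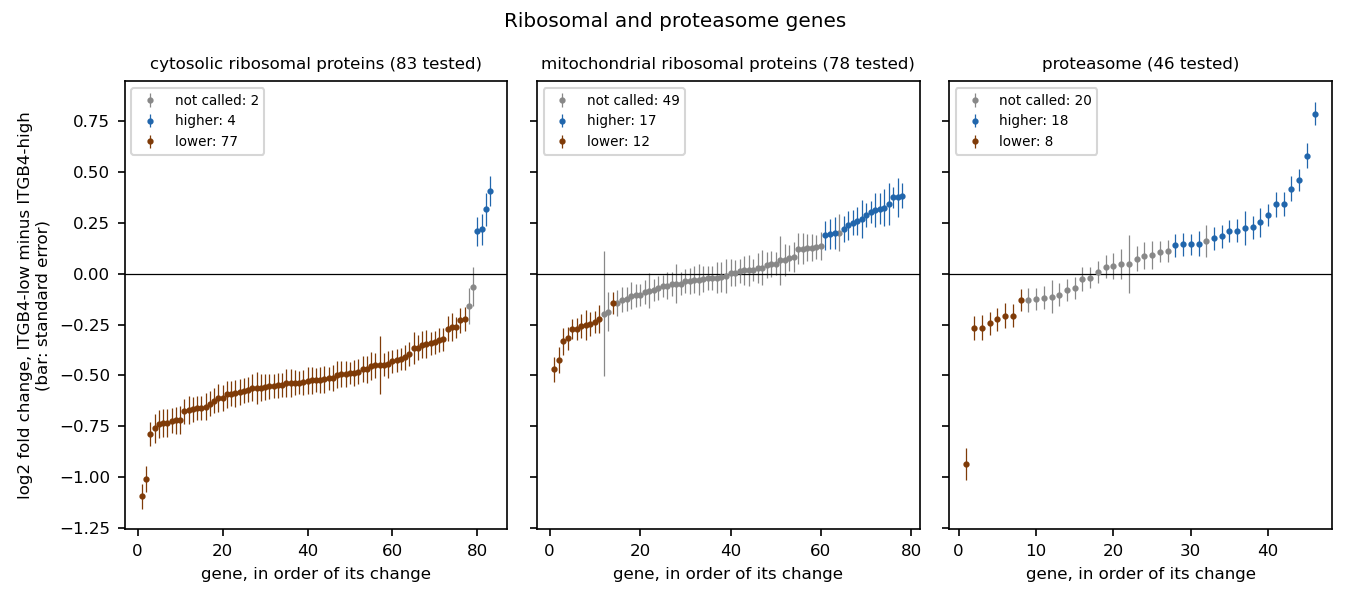
Log2 fold change with its standard error (bars) of each tested gene, in order of change, for 83 cytosolic ribosomal proteins, 78 mitochondrial ribosomal proteins and 46 proteasome genes. Brown marks genes called lower, blue those called higher and grey those not called; the cytosolic set is shifted down by a median of 0.52 and the other sets straddle 0.

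Other classes of transcript had their own balance. Long intergenic noncoding RNAs gave 164 of 649 higher and 82 lower, median 0.17. Zinc finger genes of chromosome 19 gave 15 of 188 higher and 64 lower, median -0.19, beside 134 of 678 higher and 264 lower, median -0.12, for the other protein-coding genes of that chromosome and 44 of 234 higher and 72 lower, median -0.08, for zinc finger genes elsewhere. Silencing-prone germline antigens gave 3 of 11 higher and 4 lower, median -0.15, with XAGE2 up from 4.32 to 71.9 CPM (log2 4.05, SE 0.10) and MAGEC1 down from 10.4 to 1.16 CPM (log2 -3.14, SE 0.17). DNA methylation and polycomb genes gave 8 of 37 higher and 15 lower, median -0.06; DNMT3A fell from 7.75 to 4.72 CPM (log2 -0.71, SE 0.16), EZH2 rose from 41.4 to 53.6 CPM (log2 0.37, SE 0.07) and DNMT1 stood at 190.4 and 193 CPM.

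**Figure D4:**
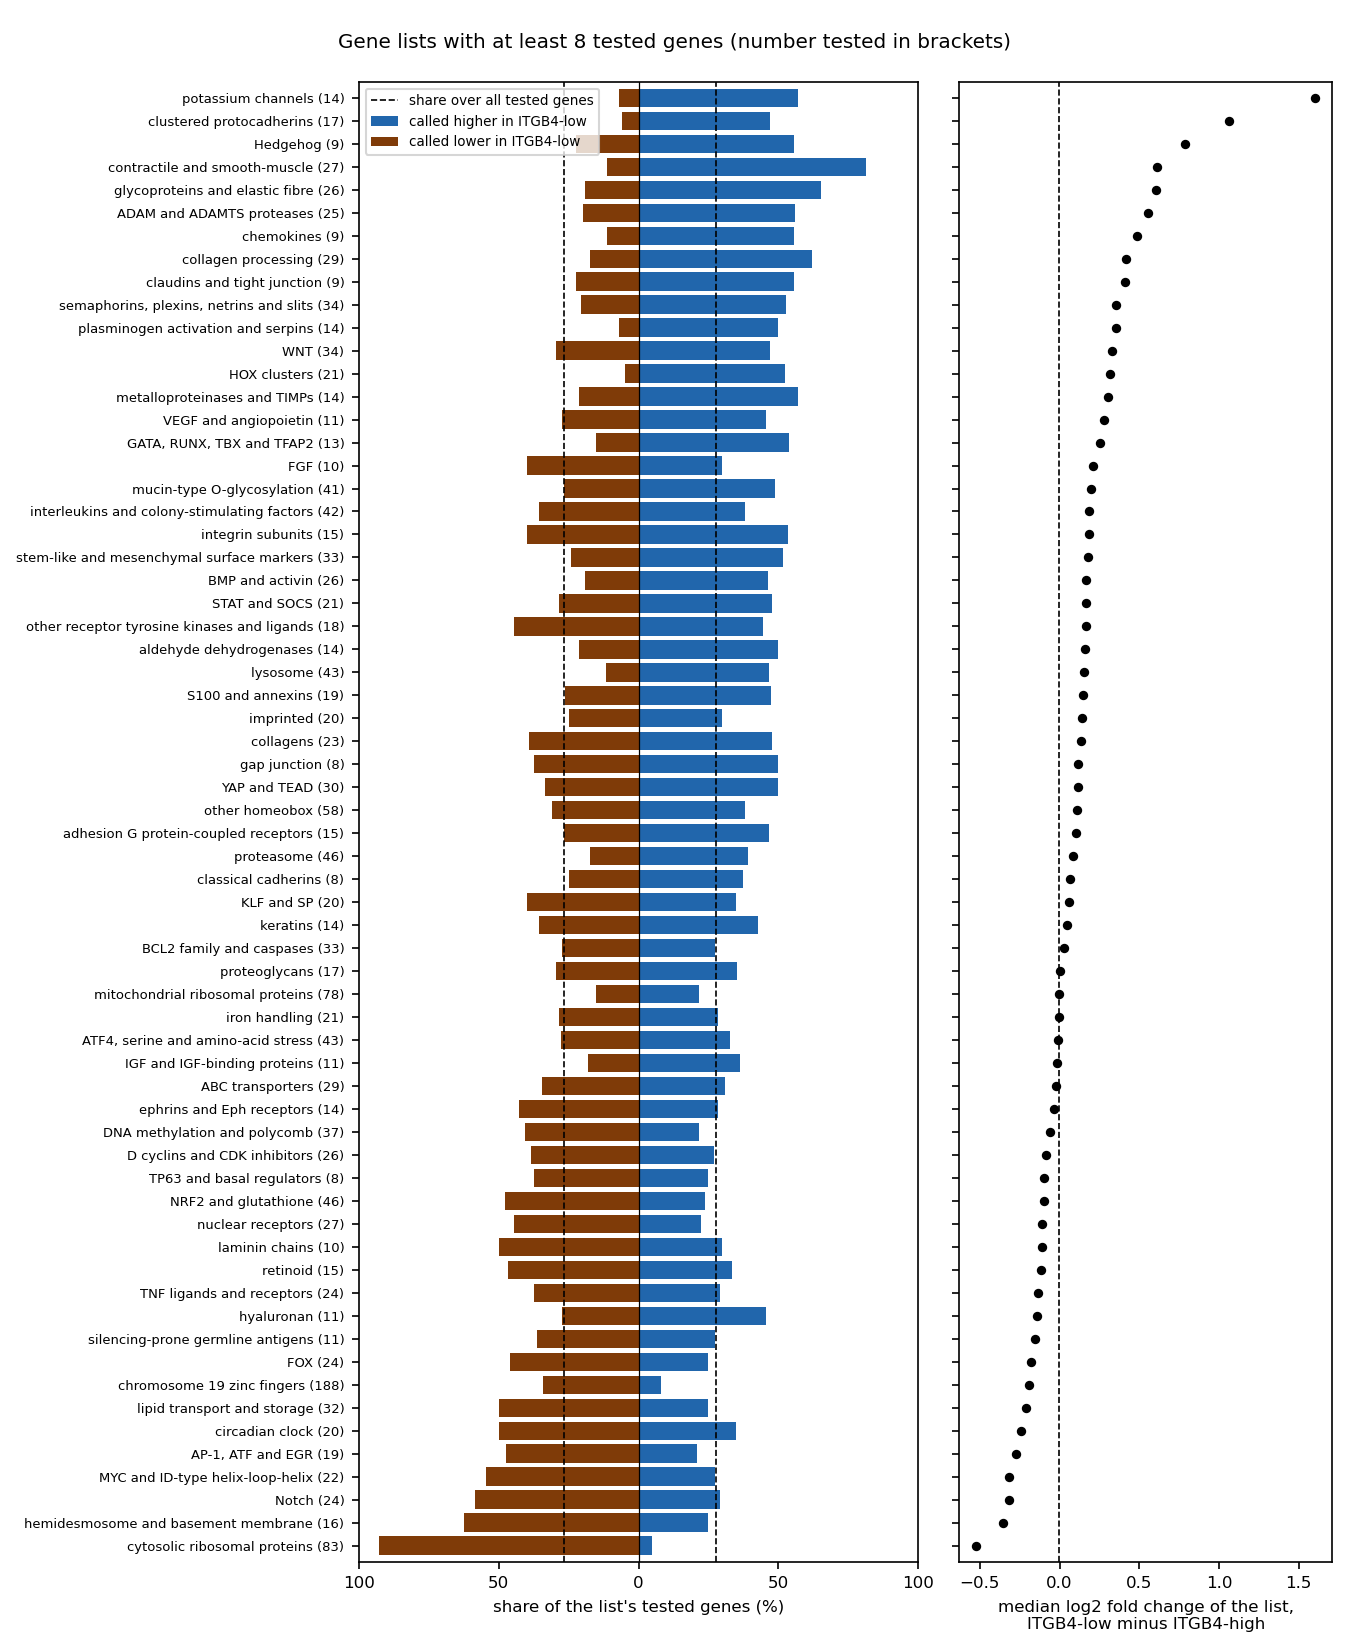
For gene lists with at least 8 tested genes, the share called higher (blue) and lower (brown) in ITGB4-low, with dashed lines at the shares over all tested genes (27.9% and 26.7%), and on the right the list's median log2 fold change. Lists are ordered by that median; potassium channels, contractile genes and collagen processing lie near the top, and cytosolic ribosomal proteins, basement membrane and Notch genes at the bottom.

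Neighbouring genes moved together in some stretches of chromosomes. The genome was divided into windows of 10 Mb, and 257 windows had at least 20 tested genes; the median log2 fold change was above 0.3 in 18 and below -0.3 in 9. In the first 22 Mb of chromosome 17, a span chosen after its values were seen, 199 of 242 tested genes were higher and 6 lower, median 0.76, whereas from 25 Mb on 126 of 635 were higher and 236 lower, median -0.10. On distal chromosome 3, from 190 to 200 Mb, 38 of 51 genes were lower and 5 higher, median -0.46. From 40 to 50 Mb on chromosome 18, 19 of 24 were lower, median -0.67, between windows of higher genes: from 50 to 60 Mb 19 of 32 were higher, and from 30 to 40 Mb 14 of 29. On chromosome 11 the window from 100 to 110 Mb had a median of -0.53 and that from 120 to 130 Mb one of 0.44. Whole chromosomes 13 (median 0.30), 18 (0.27) and 2 (0.21) were on the high side and 3 (-0.17) on the low side.

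Several genes described above lie in these stretches. TP63, ST6GAL1 and HES1 are on 3q past 180 Mb, NTN1 is in the first 10 Mb of chromosome 17, and SORL1 is on chromosome 11 between 120 and 130 Mb. TP63, HES1, SORL1 and NTN1 changed by more than 4-fold, and ST6GAL1 by less (log2 -1.55). Each of these genes was among the 3 called genes with the largest change in its window. A change beyond the window's median therefore follows from that choice. Copy number was not measured, and its part in these shifts was not tested.

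**Figure D5:**
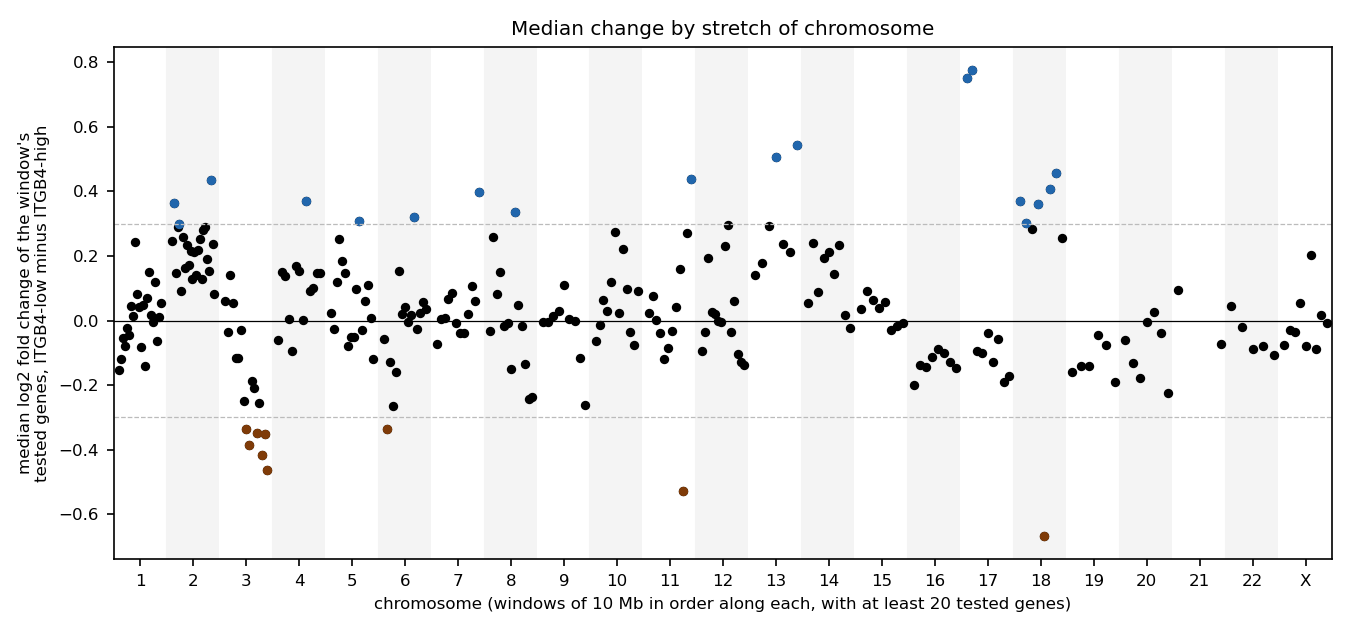
Median log2 fold change of the tested genes of each 10 Mb window with at least 20 of them, in order along each chromosome. Dashed lines mark -0.3 and 0.3, with blue points above and brown points below; the highest pair is at the start of chromosome 17 (0.75 and 0.78), and the lowest point is on chromosome 18 (-0.67).

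Markers of breast and other cell types were read to check the labels. Of 12 luminal breast genes CDH1, E-cadherin, and PGR, the progesterone receptor, had no count in any of the 5 libraries, and EPCAM had 4 counts and ESR1, the oestrogen receptor, 6 counts in all, while KRT7, KRT8 and KRT18 were present; the list summed to 2342 to 2554 CPM in ITGB4-high and 2497 to 2761 CPM in ITGB4-low. Of the 7 luminal genes tested 3 were called higher and 0 lower, median 0.41, where 27.9% of all tested genes were higher and 26.7% lower. Basal breast genes summed to 289 and 294 CPM against 83.5 to 91.0 CPM, and 8 of 9 tested were lower and 1 higher. Of 15 myeloid markers 3 passed the filter, with sums of 124 and 139 CPM against 93.2 to 115 CPM, most of it LAPTM5, and AIF1, C1QA, C1QB, FCGR3A and TYROBP were at 0 in every library. Of the 3 myeloid markers tested 2 were called higher and 1 lower. PTPRC, the pan-leukocyte phosphatase, had no count in ITGB4-high and 0 and 0 CPM against 0.971, 0.654 and 0.958 CPM, at least 15.4-fold higher. Of 15 lymphocyte markers only IL7R passed, from 6.11 to 2.26 CPM, with CD3E, CD8A and MS4A1 at 0. Of 10 endothelial markers 4 passed, with ERG at 18.2 and 10.9 CPM and CLDN5 and EMCN at 0. Of those that passed, 1 was called higher, by 2-fold or more, and 1 lower, with log2 fold changes from -0.73 to 2.71. Of 10 fibroblast markers 5 passed, with sums of 43.3 and 49.9 CPM against 47.0 to 53.7 CPM, THY1 at 0 and FAP and LUM at 2 counts and 1 count in all. Of these 5, 2 were called higher and 2 lower, each by 2-fold or more.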

How the data were processed

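Polyadenylated RNA of dish-grown Sum159 cells was sequenced from strand-marked libraries, per the labels' protocols. The deposited table holds raw counts of reads per gene, which the authors did not normalise; STAR 2.7.1a and the hg38 build are named in the submitters' processing notes. No label names the counting program or its strand setting (not given in the sources used here), so that overlapping or antisense genes and near-identical copies are uncertain. All columns matched a sample label.

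Counts of the 2 ITGB4-high and 3 ITGB4-low libraries (20413724 to 27218800 each) were filtered with filterByExpr, scaled with TMM factors (0.9776 to 1.01) and compared with the quasi-likelihood F test of edgeR 4.0.16 in R 4.3.3, with Benjamini-Hochberg adjustment over all 14879 tested genes; the common biological coefficient of variation was 0.0511 on 3 residual degrees of freedom. The method was tested on simulated counts with 200 changed genes, far fewer than the 8127 called here. That test does not cover a comparison in which most tested genes differ. CPM are TMM-scaled, and CPM per kilobase used exon lengths of GENCODE 29, to which 58216 of 58336 identifiers matched. A group with no count was set to 3 counts over the group for a bound on the fold; intervals of ratios are exact 95% binomial intervals, and both cover counting error only. Start regions came from RefSeq, with genes of several starts left out.

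Named genes were ITGB4 and ITGA6, the 15 largest rises and falls with at least 10 CPM in a group, genes at 0 in 1 group with at least 5 CPM in the other, in each of 76 lists up to 4 rises and 4 falls of at least 1 CPM, the 3 highest members and all members of lists with at most 12 tested, and the 3 genes with the largest change in a window. The 15 largest rises and falls were taken only from called genes whose groups did not overlap. For those genes, among them ADAMTS2, PCOLCE, DDR2, JAG2 and CSF3, the lack of overlap was part of the choice. The lists, the members and these rules were chosen with earlier results of these data known. Alternatives were a fit with all 8 libraries, other size factors and filters, DESeq2 1.42.0, limma-voom (limma 3.58.1), the replicate number as a block, and leaving out each library. A few results are not reported here.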

Additional observations from a re-analysis of the deposited data

How the results depend on the processing

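The count of called genes, 8127 as reported, stayed within 1.5 times under each alternative run, from 6832 without replicate 1 of ITGB4-high to 8554 with all 8 libraries in the fit, and no gene called in both the reported fit and an alternative changed direction. Of 694 genes named by the rule 617 were called; 60 of them lost the call in at least 1 alternative, 17 others gained it, and none reversed while called. Losses were most frequent without replicate 2 (41 genes) or replicate 1 (33) of ITGB4-high, where that group is 1 library assumed to vary like the others, and were 21 with DESeq2 and 0 with DESeq2-type size factors. The genes described above as called kept their calls in each alternative that tested them, with RPL26 as the exception. VIM, described above as not called, was among the 17 that gained the call. Its log2 change was -0.08 as reported and -0.15 without replicate 2 of ITGB4-high. Medians of 13 of 75 lists changed sign in an alternative, among them FGF (0.21 as reported) and the endothelial markers (0.55 as reported, -0.24 to 1.55). Leaving out 1 library moved 14 list medians by over 1.5 times and over 0.1, among them VEGF and angiopoietins from 0.28 to 0.81 without replicate 2 of ITGB4-high, WNT from 0.33 to 0.20 and metalloproteinases from 0.30 to 0.1996 without replicate 2 of ITGB4-low, lipid genes from -0.21 to -0.34 without replicate 2 of ITGB4-high, and hyaluronan genes from -0.14 to 0.05 without replicate 1 of ITGB4-low. Few genes of any list were at 0 counts in a group, and setting them to their bounds moved no list median. A median is nearly fixed under such a change of extreme members, so that this result says little. In windows of 5 Mb, 17 of 284 medians were above 0.3 and 8 below -0.3.

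The groups share replicate numbers, and deviations of same-numbered libraries correlated at -0.0488 and -0.0548. With 2 ITGB4-high libraries, the deviations of 1 mirror those of the other. These values therefore cannot decide whether the numbers pair the samples. With the replicate block 7097 genes were called, against 8127 without it, and 30 named genes lost the call.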
